A study of Rattus norvegicus with 93 samples.

Results

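The opioid receptor family was followed through brainstem samples of outbred rats by its 4 genes, Oprm1, Oprk1, Oprd1 and Oprl1, taken by symbol from the 38354 genes of the deposited table. These encode the mu, kappa, delta and nociceptin receptors. All samples were of polyadenylated RNA from the rostromedial tegmental nucleus (RMTg), whose GABA neurons reach the dopamine neurons of the midbrain, and they were collected for genetic work on avoidance learning in addiction. The labels hold 1 group and give neither strain name, age, sex, treatment nor genotype, and nothing in them says how the tissue was dissected or the RNA prepared. Of 92 libraries in the table, 49 were used: those in which Nif3l1 took under 20% of the counts and LOC120093067 with Zfp532 under 10%. The labels do not say whether every library came from a separate animal, so each p-value measures the spread between these libraries.

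The 4 receptors are G protein-coupled receptors that act through inhibitory G proteins: these lower cyclic AMP, open inwardly rectifying potassium channels and close presynaptic calcium channels, so that a neuron carrying the receptor is inhibited. The mu receptor binds endorphins and enkephalins and is the target of morphine, the delta receptor binds enkephalins, the kappa receptor binds dynorphins, and the nociceptin receptor binds nociceptin and has little affinity for the classical opioids. In the RMTg, mu receptors inhibit GABA neurons that restrain dopamine neurons, and kappa receptors are known on dopamine neurons themselves.

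Library totals ranged from 9.55 to 50.2 M (M, 1000000 estimated counts), with a median of 19.2 M. Sample identifiers fall into number series, named B to F here, with 7, 16, 12, 7 and 7 of the libraries; the labels do not explain these series. A library is named by its series and a number, as in C4. Levels are in CPM, counts per 1000000 of the library's total. Transcript length was not removed, so levels of different receptors are not compared. All 9 markers of RMTg inhibitory neurons were past the filter on low values, with a summed level of 711 to 1191 CPM. All 10 dopaminergic markers were past it too, at 395 to 2570 CPM, as were all 4 serotonergic and all 5 interpeduncular markers. Passing this filter therefore does not set the RMTg apart from its neighbours. The 4 noradrenergic markers were all under the filter, with a summed level of at most 0.61 CPM.

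Oprm1, the mu receptor, was present in every library. Its level was 3.91 ± 1.42 CPM (SD, n = 49), with the lowest value at 1.37 CPM in D2, the median at 3.96 CPM and the highest at 8.64 CPM in B4. The highest and the lowest library thus differed 6.32-fold. The values formed a continuous range with no empty interval wider than 0.30 on the log2(CPM + 1) scale. Behind these levels stood 20 to 304 estimated counts, with a median of 72.4. Counting error alone would give a coefficient of variation of 11.9%, against 36.2% observed. The variance between libraries was 9.20 times that from counting. Since this is bulk tissue, fewer cells with the receptor and less receptor RNA per cell cannot be told apart.

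The table places Oprm1 at position 45565371 of chromosome 1, and that position is the more upstream of 2 Oprm1 starts in the RefSeq promoter table (build GRCr8, used here for sequence only; the build of the deposited table is not stated). The other start lies 20612 bases downstream. Counts are summed per gene, so the use of either start is not measured. The 250 bases before each start are shown because they differ widely in composition.

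Oprm1 upstream start, chr1:45565121-45565370, + strand: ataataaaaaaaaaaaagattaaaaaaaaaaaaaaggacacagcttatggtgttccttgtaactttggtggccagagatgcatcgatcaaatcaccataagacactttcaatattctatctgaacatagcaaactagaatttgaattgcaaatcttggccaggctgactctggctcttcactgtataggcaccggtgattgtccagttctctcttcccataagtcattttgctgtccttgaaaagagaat
Oprm1 downstream start, chr1:45585733-45585982, + strand: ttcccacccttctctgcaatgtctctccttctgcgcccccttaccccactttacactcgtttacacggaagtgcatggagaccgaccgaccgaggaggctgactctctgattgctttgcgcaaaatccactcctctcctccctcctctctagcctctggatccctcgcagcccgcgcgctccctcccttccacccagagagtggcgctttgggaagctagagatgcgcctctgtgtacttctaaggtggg

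The upstream window was 36.4% G or C with 2 CpG dinucleotides, and the downstream window was 58.4% G or C with 13. The median over 33469 RefSeq promoter windows of that length was 51.2%. A GC box (GGGCGG, or CCGCCC on the other strand), held by 30.5% of those windows, was in neither, and a TATA box (TATAAA, or TTTATA), held by 12.9%, was in neither.

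Oprk1, the kappa receptor, varied most of the 3 well-measured receptors relative to genes of like expression. Its level was 10.6 ± 3.46 CPM (SD, n = 49), from 2.72 CPM in C4 through a median of 10.2 CPM to 19.5 CPM in C10, a 7.17-fold range. C4 stood alone at the bottom, since the next library was at 4.67 CPM. The counts ran from 36.4 to 513, the coefficient of variation was 32.6% against 7.25% from counting, and the variance was 20.3 times that from counting. After removing the trend of spread on mean expression, its SD lay at percentile 92.5 among 18749 genes past the filter, with Oprm1 at percentile 80.5. The table places Oprk1 on chromosome 5 at position 18675671.

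Oprl1, the nociceptin receptor (chromosome 3, position 189209495), was the steadiest. Its level was 31.6 ± 4.57 CPM (SD, n = 49), from 18.5 CPM in D6 through a median of 32.2 CPM to 40.2 CPM in C6, which is a 2.18-fold range. Its coefficient of variation of 14.4% was above the 4.20% from counting, and its variance was 11.8 times that from counting. Its SD lay at percentile 32.9. The labels mark the identifier of C6, the library highest in Oprl1, as corrected.

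Oprd1, the delta receptor (chromosome 5, position 149624999), was barely detected. It was at 0 in 20 of 49 libraries, and 6 libraries held 3 counts or more. All libraries together held 56 estimated counts of Oprd1 in a total of 1050 M, or 0.053 CPM. The highest value was 0.41 CPM in C11. A count of 0 allows a level of up to 0.060 to 0.314 CPM, depending on the library, counting error only. Oprd1 did not pass the filter and enters no test. Its nearest genes past the filter were read at ordinary depth: Epb41 at 18.4 ± 3.88 CPM and Ythdf2 at 50.6 ± 9.72 CPM (SD, n = 49). The 250 bases before its RefSeq start are shown to set beside those of Oprm1, with GC boxes in capitals.

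Oprd1, chr5:149625000-149625249, - strand: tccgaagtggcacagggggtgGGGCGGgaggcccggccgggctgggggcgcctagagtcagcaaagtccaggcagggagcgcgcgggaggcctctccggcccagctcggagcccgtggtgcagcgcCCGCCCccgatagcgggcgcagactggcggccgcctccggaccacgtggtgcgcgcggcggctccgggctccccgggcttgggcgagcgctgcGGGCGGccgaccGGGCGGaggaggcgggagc

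This window was 79.6% G or C, at percentile 98.9 of all windows, with 34 CpG dinucleotides, 4 GC boxes and no TATA box. Promoter windows of 2 of the 4 receptors were matched by symbol.

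**Figure D1:**
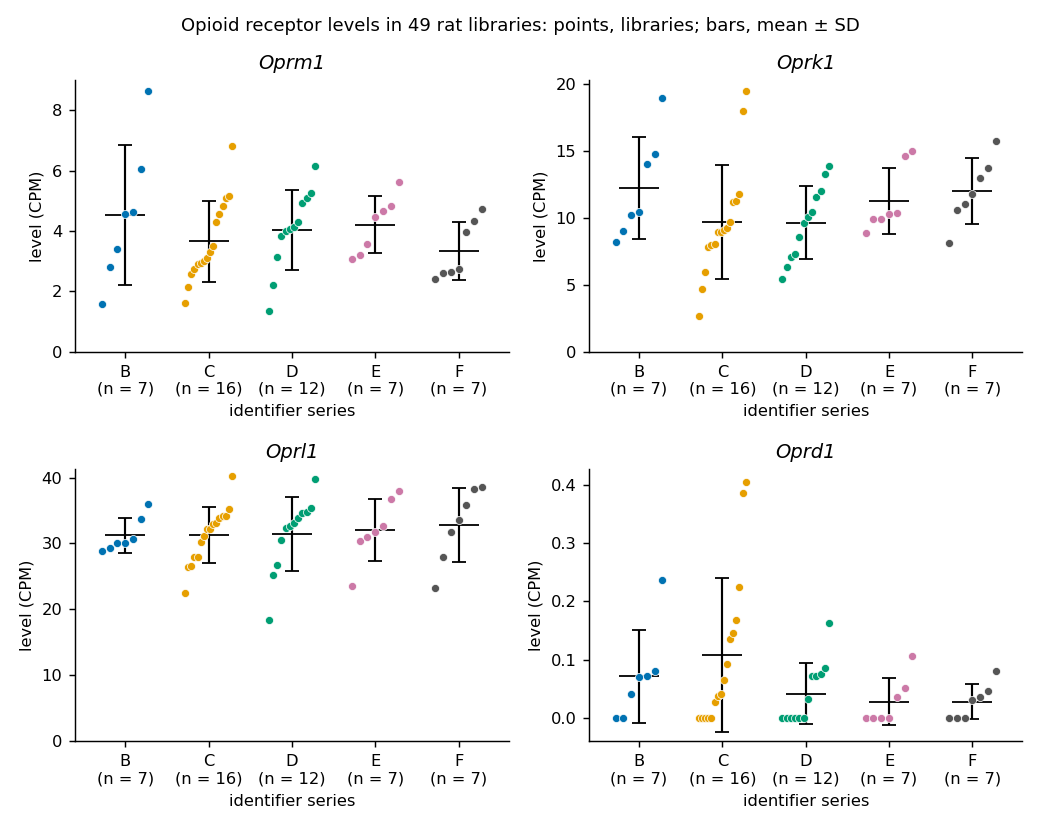
Level of each receptor in CPM (vertical axis, a separate scale for each gene) by identifier series (horizontal axis), with points for libraries, horizontal bars for means and vertical bars for the SD. The series overlap for every receptor, and Oprd1 stays at or below 0.41 CPM.

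The identifier series were compared to look for batches. None of the 3 receptors past the filter differed between series in limma's F test, in which 320 of 18749 genes passed (1.71%): the adjusted p was 0.87 for Oprm1, 0.54 for Oprk1 and 0.996 for Oprl1. Series means ran from 3.35 CPM (F) to 4.53 CPM (B) for Oprm1, from 9.65 CPM (D) to 12.2 CPM (B) for Oprk1 and from 31.2 CPM (B) to 32.8 CPM (F) for Oprl1. No receptor passed in any pair of series, where the share of genes that did was 0% for C against B, D against B and F against E, 0.0533% for D against C, 0.416% and 0.533% for E and F against B, 1.94% and 0.997% for E and F against C, and 0.992% and 0.731% for E and F against D. Within every series the libraries of each receptor spread over a wider range than the means did. Series B alone held Oprm1 values from 1.58 to 8.64 CPM, and series C held Oprk1 values from 2.72 to 19.5 CPM.

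Oprm1 and Oprk1 did not vary together. Over the 49 libraries Pearson's r was -0.04 (permutation p = 0.80) and Spearman's rho was -0.05 (p = 0.71), and r was -0.03 without the 2 libraries farthest from the Oprm1 median. In the separate series, from B to F, it was -0.06, -0.18, -0.02, 0.34 and 0.19. For Oprm1 and Oprl1, r was 0.05 (p = 0.73) and rho was -0.00 (p = 0.99), with r of 0.83 in series E and -0.81 in series F, each over 7 libraries. For Oprk1 and Oprl1, r was 0.32 (p = 0.025) and rho 0.20 (p = 0.17). That relation rested on few libraries: r was 0.19 without the 2 farthest from the Oprk1 median. In the fits over all genes it did not pass, with an adjusted p of 0.064 for Oprl1 on the Oprk1 level.

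The RMTg is small and a sample can hold tissue from its neighbours, so each receptor was set against 7 marker scores: the RMTg inhibitory neurons themselves, dopaminergic, serotonergic and interpeduncular neurons, oligodendrocytes, astrocytes and microglia. A score is the mean z value of its markers. A slope is the change of the receptor's log2(CPM + 1) for 1 SD of the score, with its SE.

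Oprk1 rose with the dopaminergic score. Its slope was 0.29 ± 0.05 (adjusted p = 1.68e-04), in a fit where 9.07% of all genes passed in either direction and 3.72% by rising. Pearson's r was 0.62 (permutation p = 2e-05) and rho was 0.59 (p = 1e-05, a floor set by the 100000 permutations), while r was 0.56 without the 2 libraries farthest from the score's median. The direction was the same in all 5 series, with r of 0.73, 0.55, 0.72, 0.66 and 0.84 in B to F. On the Oprk1 level, where 17.1% of all genes rose, 9 of the 10 dopaminergic markers did. These included Slc6a3, the dopamine transporter, with a slope of 0.66 ± 0.12, and Th, the rate-limiting enzyme of dopamine synthesis, at 0.49 ± 0.11. Ret, the receptor subunit for the growth factor GDNF, had a slope of 0.39 ± 0.05, and Nr4a2, a transcription factor of dopamine neurons, one of 0.35 ± 0.07. En1, a midbrain transcription factor, had a slope of 0.03 ± 0.03 and did not pass. The median slope over the 10 was 0.28, against -0.01 over all genes tested on the Oprk1 level, of which 35.4% passed. Th itself ranged from 46.5 to 1067 CPM over the libraries, with a median of 196 CPM. Slc6a3 ranged from 5.52 to 124 CPM, with a median of 36.1 CPM. Both were highest in B7, a library with a dopaminergic score of 2.83 and an Oprk1 level of 18.9 CPM.

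Oprk1 also rose with the astrocyte score, with a slope of 0.33 ± 0.05 (adjusted p = 1.34e-07), in a fit where 35.5% of all genes passed. Pearson's r was 0.73 and rho 0.63 (permutation p = 1e-05 for each), and r was 0.67 without the 2 farthest libraries. Within series B to E r was 0.68, 0.79, 0.68 and 0.80, while in series F, with 7 libraries, it was -0.36. With the Oprk1 level, where 17.1% of all genes rose, 6 of the 7 astrocyte markers did. Among them were the water channel Aqp4 at 0.27 ± 0.04, the gap junction gene Gja1 at 0.20 ± 0.03 and the glutamate transporter Slc1a2 at 0.20 ± 0.04. Aldh1l1 did not pass, at 0.03 ± 0.04. The library C4, lowest in Oprk1, stood low on both scores, at -1.26 for dopaminergic and -1.36 for astrocyte markers. C14, the next lowest in Oprk1, was at 0.46 for dopaminergic and -1.83 for astrocyte markers.

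The dopaminergic and astrocyte scores were themselves related (r = 0.33, permutation p = 0.021; rho = 0.28, p = 0.055). With the astrocyte score as a covariate, the slope of Oprk1 on the dopaminergic score was 0.20 ± 0.04 (adjusted p = 0.0015). With the dopaminergic score as a covariate, the slope on the astrocyte score was 0.27 ± 0.04 (adjusted p = 1.55e-06). Each therefore passed beside the other.

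On the interpeduncular score Oprk1 had a slope of 0.22 ± 0.06 (adjusted p = 0.044), where 0.582% of genes passed. The call was lost when any of 17 of the 49 libraries was left out. That score followed the dopaminergic score closely (r = 0.68), and with the dopaminergic score as a covariate the slope was 0.06 ± 0.07 (adjusted p = 0.9996). On the score of RMTg inhibitory neurons Oprk1 had a slope of -0.08 ± 0.06 (adjusted p = 0.68), where 0.0854% of genes passed. Its slopes on the serotonergic, oligodendrocyte and microglia scores were 0.05 ± 0.06, 0.00 ± 0.06 and 0.11 ± 0.06, and none passed, in fits where 0.00533%, 9.55% and 3.17% of genes did.

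Oprm1 passed on none of the 7 scores in limma's test, and its unadjusted p was under 0.05 on 0 of them. Its slope was 0.09 ± 0.06 on the RMTg inhibitory score (adjusted p = 0.58), 0.01 ± 0.06 on the dopaminergic score (adjusted p = 0.95) and 0.03 ± 0.06 on the astrocyte score (adjusted p = 0.72). Oprl1 passed on the astrocyte score alone, with 0.07 ± 0.03 (adjusted p = 0.0496). That call was lost when any of 29 of the 49 libraries was left out, and rho was 0.17 (permutation p = 0.25).

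**Figure D2:**
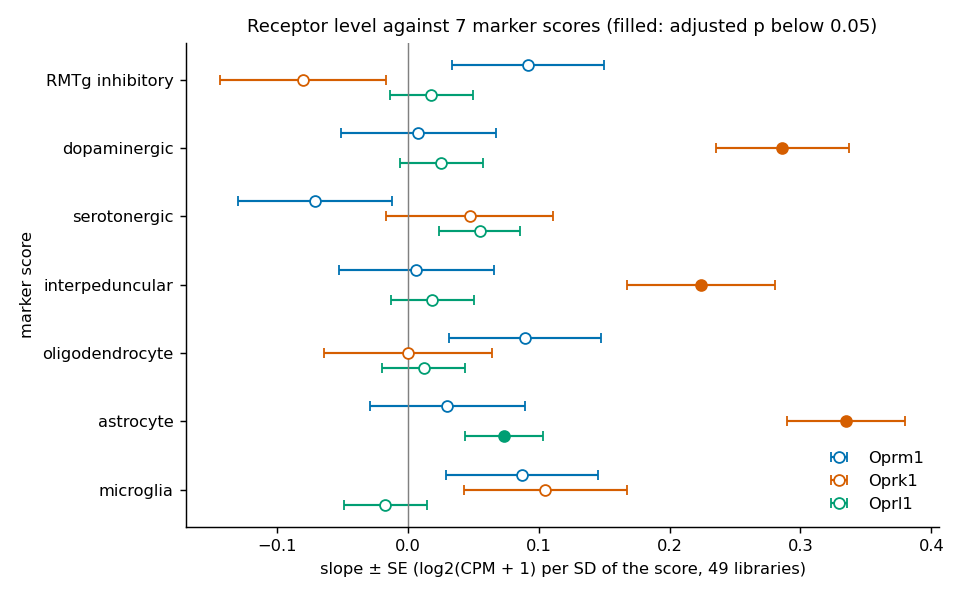
Slopes of the 3 receptors past the filter (colours) on 7 marker scores (vertical axis), in log2(CPM + 1) per SD of the score (horizontal axis), with bars for the SE and filled points where the adjusted p is below 0.05. Oprk1 stands apart at 0.29 on the dopaminergic and 0.33 on the astrocyte score.

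**Figure D3:**
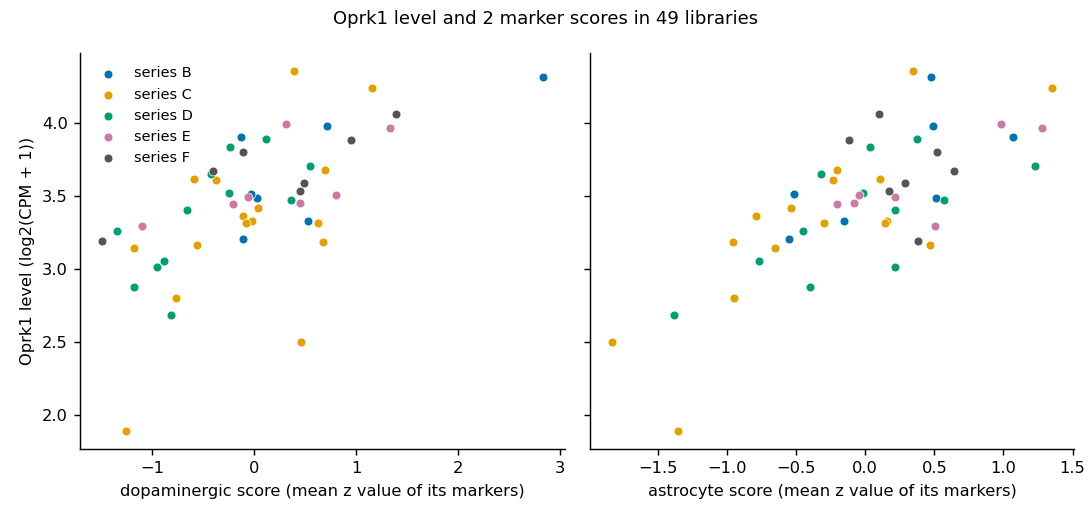
Oprk1 level as log2(CPM + 1) (vertical axis) against the dopaminergic and astrocyte scores (horizontal axes, mean z value of the markers), 1 point for each of 49 libraries, coloured by identifier series. Pearson's r is 0.62 on the left and 0.73 on the right, and the 2 libraries lowest in Oprk1 are both of series C.

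Whether the receptors differed in these slopes was tested on their log2 ratios, in 21 tests over 3 ratios and 7 scores, of which 5 passed after Benjamini-Hochberg adjustment. The ratio of Oprm1 to Oprk1 fell by 0.28 ± 0.08 per SD of the dopaminergic score (permutation test, adjusted p = 0.0062) and by 0.30 ± 0.08 per SD of the astrocyte score (adjusted p = 0.0022). The ratio of Oprk1 to Oprl1 rose by 0.26 ± 0.05 per SD of either score (adjusted p = 1.05e-04 for each, at the floor of the permutations) and by 0.21 ± 0.06 per SD of the interpeduncular score (adjusted p = 0.0048). No ratio of Oprm1 to Oprl1 passed. The 3 slopes of Oprk1 to Oprl1 passed under all 10 alternatives, and those of Oprm1 to Oprk1 did not. These alternatives held no score covariate and did not leave out each library in turn. The interpeduncular ratio slope was therefore not tested beside the dopaminergic score, where the slope of Oprk1 alone was 0.06 ± 0.07. Without the 5 libraries least correlated with the others the ratio of Oprm1 to Oprk1 had slopes of -0.22 on the dopaminergic score (permutation test, adjusted p = 0.057) and -0.17 on the astrocyte score (adjusted p = 0.17), so that neither passed. Leaving out the 2 libraries whose dopaminergic score lay farthest from its median also ended the call on that score (-0.19, adjusted p = 0.11).

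Genes of the opioid pathway were then read against each receptor's level, in 7 lists with 42 genes, all past the filter. On the Oprm1 level none of the 42 passed in limma's test, and 4 had an unadjusted p under 0.05, where 460 of 18748 genes did (2.45%). On the Oprk1 level 10 rose and 3 fell, 13 of 42, where 6629 genes passed (35.4%; 17.1% rising and 18.3% falling). On the Oprl1 level 9 rose and the other 33 did not pass, where 2079 genes passed (11.1%; 9.96% rising and 1.13% falling). The pathway genes thus passed on Oprk1 no more often than genes at large. The median slopes of the 42 genes on Oprm1, Oprk1 and Oprl1 were 0.02, 0.02 and 0.02, beside 0.02, -0.01 and 0.02 over all genes tested.

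Among the peptide precursors, Pdyn, which encodes the dynorphins that bind the kappa receptor, rose with Oprk1. Pdyn ranged from 0.26 CPM in D6 through a median of 2.25 CPM to 5.68 CPM in B7, on 3.52 counts in the lowest library and 45 in the median. Its slope on the Oprk1 level was 0.37 ± 0.07 (adjusted p = 3.54e-05). Pearson's r was 0.60 and rho 0.63 (permutation p = 2e-05 for each), r was 0.70 when the 2 libraries farthest from the Oprk1 median were left out, and in the separate series, from B to F, it was 0.59, 0.32, 0.92, 0.76 and 0.79. Pdyn rose with the dopaminergic score as well, at 0.44 ± 0.06 (adjusted p = 5.83e-07), and the part of that score in the relation of Pdyn with Oprk1 was not tested.

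The other 3 precursors passed on no receptor. Penk, the enkephalin precursor, was at 171 ± 28.1 CPM (SD, n = 49) and had slopes of 0.02 ± 0.03 on Oprm1, 0.01 ± 0.03 on Oprk1 and -0.06 ± 0.03 on Oprl1. Pnoc, the nociceptin precursor, was at 146 ± 34.7 CPM. It had a slope of 0.02 ± 0.05 on the level of Oprl1, its own receptor (r = 0.05, permutation p = 0.76; rho = 0.15, p = 0.30). Pnoc differed between the identifier series (limma's F test, adjusted p = 0.0032), as did 1.71% of all genes. Within series B to F its r with Oprl1 was 0.59, 0.17, -0.33, 0.02 and 0.20. Pomc, the endorphin precursor, was at 2.45 ± 0.80 CPM and had a slope of -0.01 ± 0.05 on Oprm1.

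Of 7 peptide processing and breakdown genes, 2 rose with Oprk1, where 17.1% of all genes rose. The 2 were Pcsk1, a convertase that cuts peptide precursors, at 0.19 ± 0.04, and Cpe, the carboxypeptidase that trims the cut ends, at 0.16 ± 0.02. Cpe rose with Oprl1 too, at 0.11 ± 0.03, and so did Dpp3, an enkephalin-degrading peptidase, at 0.10 ± 0.03. On the Oprl1 level 9.96% of all genes rose. Pcsk2, a second convertase, had a slope of 0.02 ± 0.04 on Oprk1 and of 0.08 ± 0.04 on Oprm1 and did not pass on either.

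Of the 5 inhibitory G protein alpha subunits, Gnai1 and Gnai3 rose with Oprk1, each at 0.24 ± 0.04, and with Oprl1, at 0.18 ± 0.04 and 0.19 ± 0.05. Of all genes 17.1% rose and 18.3% fell with Oprk1, and 9.96% rose with Oprl1. Gnao1, the most abundant G protein alpha subunit of the brain, fell with Oprk1 by 0.04 ± 0.02 (adjusted p = 0.042). Gnai2 and Gnaz did not pass. The 4 GIRK potassium channel genes, through which the receptors hyperpolarise neurons, passed on no receptor in limma's test, with 0, 1 and 1 of the 4 at an unadjusted p under 0.05 on Oprm1, Oprk1 and Oprl1. Kcnj6, for example, had slopes of 0.05 ± 0.03, -0.02 ± 0.03 and 0.02 ± 0.03 on Oprm1, Oprk1 and Oprl1.

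Among effectors, Cacna1a, the pore of the P/Q-type calcium channel, fell with Oprk1 by 0.17 ± 0.04 (adjusted p = 1.25e-04). The adenylyl cyclases Adcy2 and Adcy8 rose with Oprl1, at 0.12 ± 0.03 and 0.10 ± 0.03. RGS proteins, which speed the switching-off of G proteins, gave 3 of 7 that rose with Oprk1, where 17.1% of all genes rose: Rgs4 at 0.17 ± 0.04, Rgs7 at 0.13 ± 0.02 and Rgs20 at 0.14 ± 0.04. Rgs4 also rose with Oprl1, at 0.14 ± 0.04. Of 9 genes of receptor phosphorylation and sorting, Gprasp1, which directs receptors to lysosomes, rose with Oprk1 at 0.11 ± 0.02 and with Oprl1 at 0.10 ± 0.02. Wls, a Wnt carrier known to bind the mu receptor, rose with Oprk1 at 0.15 ± 0.03 and had a slope of 0.03 ± 0.04 on Oprm1. The receptor kinase Grk6 fell with Oprk1 by 0.11 ± 0.03 and had a slope of 0.11 ± 0.03 on Oprm1 (adjusted p = 0.065). The arrestin Arrb1 rose with Oprl1 at 0.09 ± 0.03.

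Of the 13 pathway genes called on Oprk1, 8 kept direction and call under the 10 alternatives without the principal component described next: Pdyn, Pcsk1, Cpe, Gnai1, Gnai3, Cacna1a, Rgs4 and Rgs7. Of the 9 called on Oprl1 none did. How many of all called genes kept their call, here or beside that component, was not counted. The kept genes are therefore not read as a result about the pathway. Without the 5 libraries least correlated with the others (C3, C4, C13, C14 and D6), 9 of the 42 rose and 2 fell with Oprk1, where 9.44% of all genes rose and 12.7% fell. In that setting 1 rose with Oprm1, where 4.04% of all genes did, and none passed with Oprl1, where 1 gene in all did. With the first principal component of all genes, which held 17% of the variance, as a covariate, 4 rose and 1 fell with Oprk1, where 7.63% of all genes rose and 3.87% fell. There 2 rose with Oprl1, where 1.41% did, and 3 rose with Oprm1, where 4.87% did (Gnai1 and Grk6 at 0.10 ± 0.03 each, Rgs4 at 0.11 ± 0.03). Of the 13 genes called on Oprk1, 2 kept the call beside that component: Cpe at 0.10 ± 0.02 and Gprasp1 at 0.09 ± 0.03. The others lost it, among them Pdyn at 0.18 ± 0.09 (adjusted p = 0.14), Gnai1 at 0.11 ± 0.04 (adjusted p = 0.082), Gnai3 at 0.07 ± 0.05 (adjusted p = 0.37), Cacna1a at -0.04 ± 0.04 (adjusted p = 0.55) and Rgs4 at 0.01 ± 0.04 (adjusted p = 0.88). The other 3 that passed there, Rgs17, Grk3 and Gnai2, had not passed without it. The Oprk1 level itself followed that component, with r of 0.68 and rho of 0.66 (permutation p = 1e-05 for each). The same settings moved the marker counts on Oprk1: of the dopaminergic markers 10 of 10 rose without those 5 libraries, where 9.44% of all genes rose, and 4 of 10 with the component, where 7.63% did. Of the astrocyte markers 3 of 7 rose under either.

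**Figure D4:**
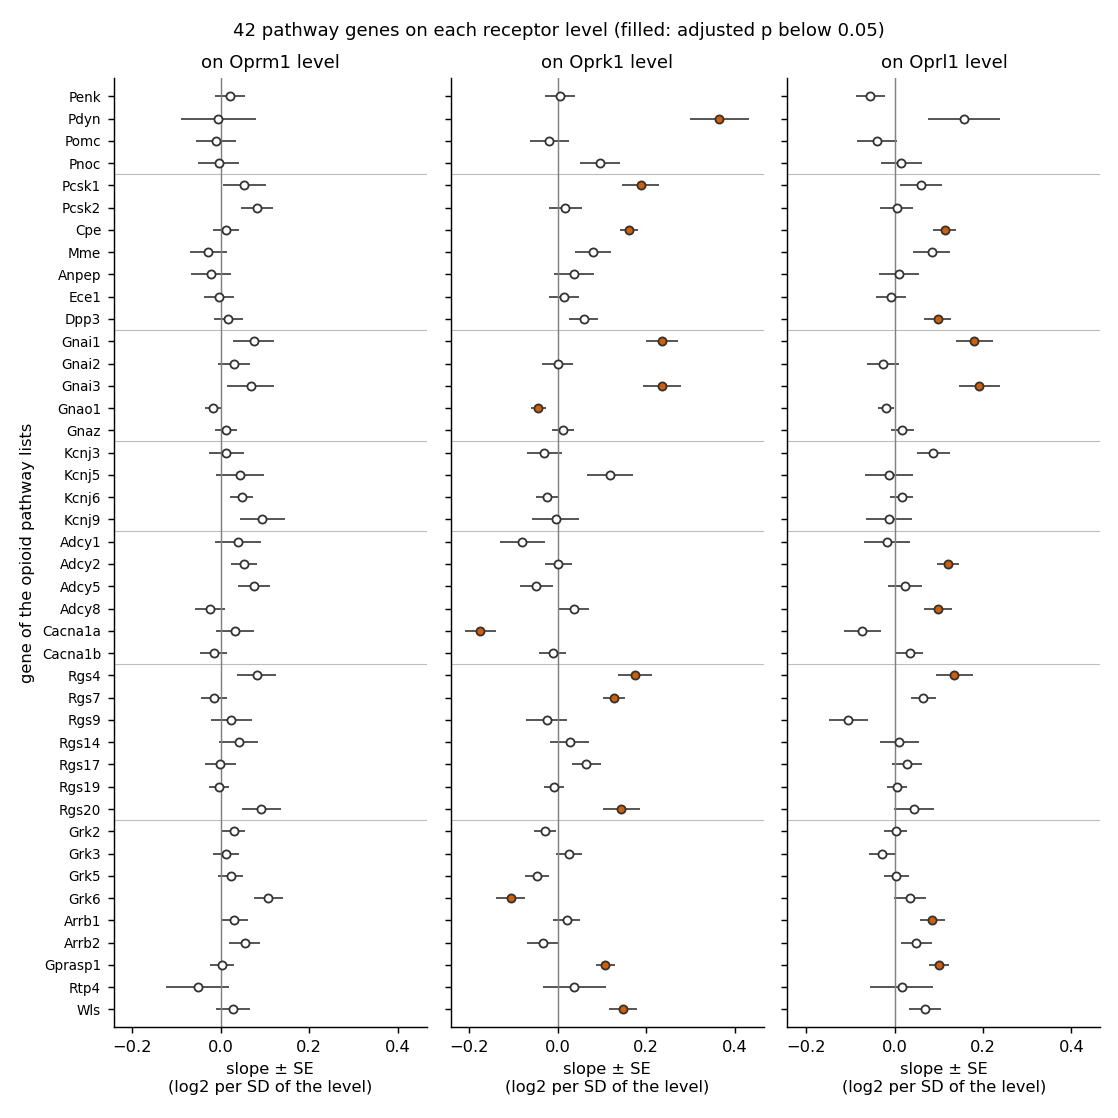
Slopes of 42 opioid pathway genes (vertical axis, grey lines between the 7 lists) on the level of Oprm1, Oprk1 and Oprl1, in log2(CPM + 1) per SD of the receptor's level (horizontal axes, 1 scale), with bars for the SE and filled points where the adjusted p is below 0.05. No point is filled for Oprm1, and Pdyn has the highest slope on Oprk1, at 0.37.

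The genes whose levels were most like a receptor's were named by Pearson's r over the 49 libraries, among those that passed and kept 1 sign in every series. For Oprm1, 460 genes passed, 408 rising and 52 falling. Highest were Ptar1, a prenyltransferase subunit (r = 0.66), the axonemal dynein gene Dnai4 (0.65), Ero1a, an oxidase of the endoplasmic reticulum (0.64), and the imprinted gene Mest (0.63). Gad2, which makes GABA and is a marker of the RMTg inhibitory list, came next at r = 0.62, with a slope of 0.27 ± 0.05 (adjusted p = 0.0020). Of the 9 RMTg markers it alone passed on Oprm1, and D2 and B4 were the lowest and the highest library for Gad2, at 34.1 and 125.5 CPM, as for Oprm1. Jak1, Hdac4, Brinp1, Dync1li1 and Usp15 followed, at 0.62 to 0.60. The lowest were Rad52, a DNA repair gene (-0.61), Ppif, Lrrc71 and Abcd4 (-0.56).

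For Oprk1, 3199 genes rose and 3430 fell. Highest were Serinc3, a membrane protein (r = 0.84), Prkacb, a catalytic subunit of protein kinase A (0.83), Tusc3 (0.83), Txnl1 (0.82) and Qpct, which forms the pyroglutamate end of peptides (0.82). Ctnnb1, Fgf13, Morf4l2 and Tmem255a followed at 0.82 to 0.81, and Cpe at 0.80. The lowest were Srrm2, a splicing protein (-0.77), Hmgxb3, Smarcc2 and Knop1 (-0.73). For Oprl1, 1867 rose and 212 fell, with Elp2 (0.68), Mkrn1 (0.68), Med14 (0.67), Wdr7 (0.67) and Trim32 (0.67) highest and Zfp827 lowest (-0.61).

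The 3 sets of genes were not equally stable. The named genes were picked as the most alike in these same libraries, which favours keeping a call. Under 10 alternatives, the principal component not among them, all 15 named genes of Oprk1 kept their call. So did 14 of 15 for Oprm1, with Ppif reaching an adjusted p of 0.051 in limma's test in the other case. None of the 15 of Oprl1 kept theirs without the 5 least correlated libraries, where 1 gene passed in all. Leaving out D6, the library lowest in Oprl1, brought the Oprl1 count from 2079 to 258, and leaving out C14 raised it to 3153. For Oprm1 the count was 191 without D2, 237 without C7, 271 without B3, 300 without D9 and 718 without E5. For Oprk1 it stayed between 5157 and 6796.

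The genes next to the receptors on the chromosomes were read for shared variation. Rgs17, 835 kb from Oprm1, had r of -0.01 with it, and Rgs19, 19 kb from Oprl1, had r of 0.04 with it. Rgs20, 607 kb from Oprk1, had r of 0.45 with a slope of 0.14 ± 0.04 (adjusted p = 0.0052), a call that was lost without the 5 least correlated libraries (0.07, adjusted p = 0.23). LOC102549737, 654 kb on the other side of Oprk1, fell by 0.26 ± 0.05 per SD of its level (r = -0.62, adjusted p = 2.26e-05). Of the 12 neighbours of the 3 receptors those 2 passed, both on the Oprk1 level and among its 4 neighbours, where 35.4% of all genes passed.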

How the data were processed

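The authors deposited 1 table of log2 values for 38354 genes in 92 libraries. The submitters' processing notes name kallisto 0.48, and the genome build and annotation are not given in the sources used here. From the values, each deposited log2 value is that of an estimated count plus 1. A sample of the labels that was not genotyped was not analysed here. Values were back-transformed, scaled to CPM and taken as log2(CPM + 1). Genes at 1 or more in at least 20% of libraries were kept (18749). Totals of 9.55 to 50.2 M set the precision, and counting error is the only error that floors of 3 counts cover. Slopes on a z-scored level or score, and series differences, were fitted over all genes with limma 3.58.1 (R 4.3.3, trended moderation, Benjamini-Hochberg over all genes, threshold 0.05), checked on simulated data. A list's own markers were left out of the counts on its score. Correlations and ratios used 100000 two-sided permutations (numpy 2.4.6). A series starts at a gap over 50000 between identifiers. Named genes are the receptors, the pathway lists, the 10 highest and 5 lowest r for each receptor among genes that passed with 1 sign in every series (unnamed loci passed over; 2 genes that this rule picks are not reported here), and the 2 nearest genes past the filter on each side. The receptors, lists and the selection of libraries were chosen with earlier results of these data known. Alternatives changed the pseudocount, filter, scaling, totals, covariates and libraries; leaving out each library in turn, the principal component and the score covariates were chosen after seeing the data.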

Additional observations from a re-analysis of the deposited data

Results flagged for a closer look

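The receptors were also looked up in the 43 libraries that none of the comparisons used, and at least 3 counts were taken as a signal. In the 32 libraries in which LOC120093067 and Zfp532 took over 10% of the counts, with totals of 2.29 to 13.7 M, Oprm1 and Oprl1 reached 3 counts in all 32 and Oprk1 in 31. Median levels there were 8.93 CPM for Oprm1 (range 3.0 to 14.1), 5.74 CPM for Oprk1 (range 0.86 to 16.2) and 20 CPM for Oprl1 (range 9.25 to 48.7). Oprd1 reached 3 counts in 1 of the 32 and was at 0 in 26. These libraries hold a large share of their counts in the 2 named features, so their CPM and those of the 49 libraries are on different bases, and no test was made between them. In the 11 libraries in which Nif3l1 took over 20% of the counts, Oprm1 reached 3 counts in 2, Oprk1 in 2, Oprl1 in 4 and Oprd1 in none.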

How the results depend on the processing

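The slopes of Oprk1 on the dopaminergic and astrocyte scores kept direction and call under all 11 alternatives for each and without any 1 library. Over the alternatives they ranged from 0.20 to 0.31 (limma, adjusted p at most 0.0033) and from 0.20 to 0.37 (adjusted p at most 9.02e-04). The first principal component, which the Oprk1 level followed (r = 0.68), was not tried as a covariate for these slopes or the ratio slopes. The interpeduncular slope of Oprk1 kept its call in 2 of 12 (0.06 to 0.25) and the astrocyte slope of Oprl1 in 4 of 11 (0.02 to 0.09). Where values moved, the cause was not tested.

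Genes called on the Oprm1 level numbered 460, on Oprk1 6629 and on Oprl1 2079. Median-of-ratios scaling gave 117 for Oprm1 and 1014 for Oprl1. Xist and Ddx3y as covariates gave 881 for Oprm1. Without the 5 least correlated libraries the counts were 1065, 4152 and 1, and leaving out the 2 libraries most distant from the median gave 93 for Oprm1 and 1013 for Oprl1. With the first principal component as a covariate they were 1044, 2156 and 278. Without the 5 least correlated libraries 3 ratio slopes passed in place of 5: those of Oprm1 to Oprk1 on the dopaminergic and astrocyte scores were lost, and the dopaminergic one also without its 2 farthest libraries. Leaving out 1 library gave 191 to 718 genes on Oprm1 and 258 to 3153 on Oprl1 (D6, C14).

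Counts on the scores moved too. On the RMTg score, 16 became 26 with a pseudocount of 0.1, 43 with median-of-ratios scaling, 39 with totals without dominant features, 36 with log10 total, 43 with Xist and Ddx3y, 125 without the 5 libraries, 4 with series, 8 without the farthest 2 and 31 with the astrocyte score. On the dopaminergic score, 1699 became 995 with log10 total, 258 with Xist and Ddx3y, 1048 without the 5, 969 with series, 229 with the astrocyte score, and 748 (C4) to 2446 without 1 library, with 1031 without E5. On the interpeduncular score, 109 became 54 with Xist and Ddx3y, 65 without the 5, 57 with series, 15 without the farthest 2, 59 with the astrocyte score, 0 with the dopaminergic score, and 10 (B7) to 131 without 1 library, with 72 without D5 and 66 without F6. On the serotonergic score, 1 became 8 with median-of-ratios scaling, 2 with Xist and Ddx3y or the astrocyte score and 3 without the 5. On the oligodendrocyte score, 1789 became 498 with median-of-ratios scaling, 596 with Xist and Ddx3y and 1025 without the farthest 2. On the microglia score, 594 became 326 with log10 total and 1295 without the 5. Between series, 320 became 105 with Xist and Ddx3y and 542 without the 5.

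Slopes that changed sign were not called under any setting. With median-of-ratios scaling these were Oprm1 on the dopaminergic (-0.0019) and interpeduncular (-0.014) scores, Oprl1 on the RMTg (-0.0070) and oligodendrocyte (-0.016) scores and Oprl1 on the Oprm1 level (-0.016). With the astrocyte score as a covariate they were Oprm1 on the dopaminergic (-0.0020) and interpeduncular (-0.00063) scores, Oprk1 on oligodendrocyte (-0.11) and microglia (-0.079) scores and Oprl1 on oligodendrocyte (-0.012). Without the 5 libraries they were Oprk1 on the serotonergic (-0.036) and Oprl1 on the RMTg (-0.0025), interpeduncular (-0.0040) and oligodendrocyte (-0.011) scores. Oprk1 on the oligodendrocyte score was also below 0 with totals without dominant features (-0.010), log10 total (-0.051), Xist and Ddx3y (-0.038), series (-0.018) and without the farthest 2 (-0.041), as was Oprl1 there (-0.027). Oprk1 on the Oprm1 level was 0.015 with the principal component. Oprl1 on the Oprk1 level passed with median-of-ratios scaling (0.071, adjusted p = 0.037) and log10 total (0.081, adjusted p = 0.031). Leaving out C13 alone or F2 alone also gave a call there. Without 1 library, slopes ranged from -0.012 to 0.036 for Oprm1 on the dopaminergic, -0.0092 to 0.031 for Oprm1 and -0.0056 to 0.037 for Oprl1 on the interpeduncular score, -0.033 to 0.010 for Oprk1 on Oprm1, -7.79e-05 to 0.019 for Oprl1 on Oprm1 and 0.045 to 0.082 for Oprl1 on Oprk1. Depth limits Oprd1 to detection.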

Other observations

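Lists for other neuron types were read against the receptors as well. On the Oprk1 level 35.4% of all genes passed, 17.1% by rising and 18.3% by falling. Of 3 vesicular glutamate transporter genes, Slc17a8 rose with Oprk1, at 0.18 ± 0.06 (limma, adjusted p = 0.022), while Slc17a6, the transporter of most brainstem glutamate neurons, had a slope of -0.07 ± 0.09. Slc17a7 did not pass. It was at 0 in 10 libraries, with a median of 0.28 CPM, and highest at 26 CPM in C10, the library highest in Oprk1. Of the 3 genes of the glycinergic list, Glra1 and Glra2 encode glycine receptor subunits and do not mark glycinergic neurons. They went opposite ways with Oprk1, at -0.26 ± 0.04 (limma, adjusted p = 4.41e-06) and 0.23 ± 0.04 (adjusted p = 7.62e-05). Slc6a5, the other gene of that list, did not pass. Within the RMTg list, Gad1 rose with Oprk1, at 0.11 ± 0.03 (limma, adjusted p = 0.0062), and the transcription factor Foxp1 fell by 0.11 ± 0.02 (adjusted p = 2.68e-04). The other 7 of that list did not pass. The vesicular glutamate transporter, glycinergic and RMTg lists had median slopes of 0.18, 0.00 and -0.05 on Oprk1, beside -0.01 over all genes. The transporter and glycinergic lists hold 3 genes each, so the median of either is the slope of 1 gene.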
